A study of Mus musculus with 72 samples.

Results

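The 10 genes described here encode subunits of the vacuolar H+-ATPase (V-ATPase), chosen by symbol from the 51826 genes in the count tables. They comprise 5 genes of the membrane sector V0 (Atp6v0a1, Atp6v0b, Atp6v0c, Atp6v0d1 and Atp6v0e) and 5 of the soluble sector V1 (Atp6v1a, Atp6v1b2, Atp6v1c1, Atp6v1d and Atp6v1h). The question was whether the mRNAs of the 2 sectors of one enzyme differ in where they are found in the cell and in how fast newly made RNA appears in each place. E14TG2a mouse embryonic stem cells, a single line of male origin grown with LIF and the inhibitors CHIR99021 and PD0325901, were labeled with 4-thiouridine (4sU), a uridine analog that is read as cytosine after alkylation. Detergents then released a cytosolic and a membrane fraction in turn and left the nucleus, and poly(A) RNA of each fraction and of whole cells was sequenced. Every culture of each group received 4sU. The labels give 500 µM for 15, 20, 30 and 40 min and 100 µM for 60 and 120 min. The paper, however, describes cultures with 500 µM at 60 min too, beside others with 100 µM at 60 and 120 min. It left out samples kept in 500 µM for longer than 60 min, because genes were differentially expressed from 120 min on.

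In all, 18 cultures gave 72 libraries, 1 for each of 4 fractions. The first replicate pair (1 and 2) covers 15, 20 and 30 min, the pair of 3 and 4 covers the labeling times 20, 40, 60 and 120 min, and the last pair (5 and 6) holds only the cultures of 60 and 120 min, so that each pair has its own set of times. The 8 libraries of replicates 3 and 4 at 120 min were left out of the main results, which left 16 cultures and 64 libraries. In those, 20 and 60 min are the times that 2 pairs share. Only the fit of whole-cell levels over time also used the whole-cell libraries among these 8. The replicates were independently passaged cultures of 1 line. The 4sU dose at 60 min cannot be taken from the labels alone. The conversion rate of new RNA at that time was 7.43% ± 0.787 (SD, n = 8 libraries) in replicates 3 and 4. In replicates 5 and 6 it was 3.01% ± 0.541 (SD, n = 8). Read with the doses in the paper, replicates 3 and 4 were probably the series of higher dose, against their labels. Their libraries at 120 min would then be among the samples that the paper left out. Results that join the pairs at 60 and 120 min probably span both doses, and doses are not compared here. The libraries held 13185351 to 52975732 reads on genes (median 21494524.5). All 10 stem cell markers had a mean whole-cell expression of at least 133 (length-normalized), and 11 of 12 markers of other cells were at or below 5.26, with Pecam1 at 82.8. The nuclear RNA Malat1 had a mean of 352 ± 217 (SD, n = 16) in the nucleus and 42.5 ± 11.6 (SD, n = 16) in the cytosol.

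Whole-cell libraries of replicate 6 ran against their labels. The median gene had a share of new RNA of 37.4% in the library labeled 60 min and 17.5% in the library labeled 120 min, whereas replicate 5 gave 22.0% and 38.8%, and the other 3 fractions of replicate 6 rose with time. Whole-cell shares of new RNA are therefore given with and without that replicate.

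The V-ATPase is a rotary pump that moves protons into lysosomes, endosomes, the Golgi and secretory vesicles. ATP is hydrolyzed in the V1 sector, which sits in the cytosol and can detach, and the protons pass through V0, which lies in the lipid bilayer. V0 holds a ring of proteolipids, encoded by Atp6v0c (subunit c) and Atp6v0b (subunit c″), beside the large subunit a (isoform a1 from Atp6v0a1) and the small subunit e (Atp6v0e). Subunit d (Atp6v0d1) is counted with V0 but caps the ring on the cytosolic side and does not cross the membrane. In V1, Atp6v1a and Atp6v1b2 encode the subunits A and B of the catalytic head, Atp6v1d the central rotor shaft, and Atp6v1c1 and Atp6v1h the C and H subunits that link the head to the membrane part and take part in its control. Messages for proteins that cross the membrane are in general translated by ribosomes bound to the endoplasmic reticulum, and those for cytosolic proteins by free ribosomes.

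In GRCm38 coordinates (GENCODE M21), Atp6v0a1 of the V0 genes lies at chr11:101009452-101063719 (plus strand), Atp6v0b at chr4:117884326-117887333 (minus), Atp6v0c at chr17:24163866-24169702 (minus), Atp6v0d1 at chr8:105524465-105566047 (minus) and Atp6v0e at chr17:26663231-26699647 (plus). Of the V1 genes, Atp6v1a lies at chr16:44085402-44139705 (minus), Atp6v1b2 at chr8:69088646-69113711 (plus), Atp6v1c1 at chr15:38661933-38692446 (plus), Atp6v1d at chr12:78840725-78861638 (minus) and Atp6v1h at chr1:5070018-5162529 (plus).

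The coding sequences differ in how many codons have T at the second base, the position that in the genetic code gives the hydrophobic residues phenylalanine, leucine, isoleucine, methionine and valine. For each gene a stretch of 30 coding bases (10 codons) with the most such codons is shown, with T at the second base of a codon in capitals, for the 4 V0 genes whose products cross the membrane, for Atp6v0d1 and for Atp6v1a.
Atp6v0a1, codons 456 to 465: aTtaTtcTtcTgaTgggacTgtTctccaTc
Atp6v0b, codons 172 to 181: cTctTtgTaaaaaTtcTcaTcgTggagaTc
Atp6v0c, codons 127 to 136: cTgtTcgTgggcaTgaTccTgaTccTcaTc
Atp6v0e, codons 6 to 15: cTtactgTgccttTgaTcgTgaTgagcgTg
Atp6v0d1, codons 104 to 113: tacaTgaTtgacaacgTgaTccTgcTaaTc
Atp6v1a, codons 190 to 199: gTcgTccTggagcTtgagtTtgaaggtgTg
Such codons made up 41.9% of the 155 codons of Atp6v0c and 41.0% of the 205 of Atp6v0b, against a median of 27.1% over 21549 coding genes. Atp6v0a1 had 35.8% of 839 codons and Atp6v0e 35.6% of 104, while Atp6v0d1 had 32.5% of 351. The 5 V1 genes lay between 29.5% in Atp6v1a and 31.7% in Atp6v1c1. The richest stretches of Atp6v1c1 and Atp6v1h, not shown, held 7 such codons, as did those of Atp6v0e and Atp6v0d1, against 6 in Atp6v1a. Windows of 19 codons with at least 11 of these codons were counted from the start of the sequence without overlap, so a long stretch can hold several. They numbered 6 in Atp6v0a1, 3 in Atp6v0b, 2 in Atp6v0c and 1 each in Atp6v0e, Atp6v0d1 and Atp6v1c1. The other 4 V1 genes had none. Of all coding genes, 42.6% held at least 1 such window. These counts describe the sequences and were chosen after the values below had been seen.

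Reads of Atp6v0c are shared with a near copy. The processed pseudogene Atp6v0c-ps2 at chr6:37806086-37806550 (GRCm38) matches the coding sequence of Atp6v0c in 464 of 465 bases. The single difference is T111C, counted from 1 at the first coding base, and the 30 bases around it (coding bases 97 to 126) show the differing base in capitals.
Atp6v0c: ggcacagccaagagTggcactggcatcgca
Atp6v0c-ps2: ggcacagccaagagCggcactggcatcgca
Since the counting kept unique alignments, Atp6v0c held 173 to 604 reads in the membrane libraries and Atp6v0c-ps2 1480 to 5641, and the copy took 78.7% to 97.1% of the reads of both over the libraries. Which of the 2 loci gave rise to those reads cannot be told apart from the counts, so the level of Atp6v0c is uncertain and its ratios of membrane and nucleus to cytosol are given with the sum of both as well, while its tests rest on the unique reads of Atp6v0c alone. A second copy, Atp6v0c-ps1, differed at 17 aligned positions.

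Length-normalized expression (reads per kb of exon, scaled to the same sum, 1e+06, in each library) showed 4 V0 mRNAs low in the cytosol and high in the membrane fraction. Atp6v0a1 ranged from 1.45 to 9.31 (median 4.74) in the 16 cytosolic libraries and from 18.8 to 60.7 (median 31.2) in the 16 membrane libraries, with no overlap. By the unique reads counted, Atp6v0b had the highest level of the 4, though the level of Atp6v0c is uncertain. Atp6v0b had 9.84 to 42.5 (median 25.1) in the cytosol and 96.1 to 257 (median 163) in the membrane fraction. Atp6v0e had 11.4 to 23.1 (median 14.7) in the cytosol against 58.5 to 95.8 (median 79.7) at the membrane. Atp6v0c had 0.100 to 2.00 (median 1.18) and 6.50 to 15.95 (median 10.5) in the 2 fractions, from only 3 to 68 cytosolic reads per library. For all 4 genes the lowest membrane library lay above the highest cytosolic library. The share of all genes that separate in this way is not given here.

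The subunit d gene did not share that pattern. Atp6v0d1 had 107 to 150 (median 134) in the cytosol and 79.5 to 157 (median 114) in the membrane fraction, so the groups overlapped. The V1 genes were all lower on average at the membrane. Atp6v1a ranged from 48.8 to 77.9 (median 67.0) in the cytosol and from 25.5 to 60.7 (median 39.4) at the membrane, and Atp6v1b2 from 63.5 to 117 (median 81.2) and from 31.5 to 83.1 (median 47.2). Of the C and D subunit genes, Atp6v1c1 had cytosolic levels of 30.5 to 58.0 (median 43.0) and membrane levels of 16.3 to 33.3 (median 24.1), and Atp6v1d 32.3 to 54.6 (median 44.4) and 18.5 to 40.8 (median 27.2). Atp6v1h was the lowest of the V1 genes, at 13.0 to 34.0 (median 18.8) and 8.78 to 31.1 (median 15.3). Groups overlapped for all 5 V1 genes. Each library is scaled to its own total, so these values are relative to the RNA of a fraction and not amounts per cell, and fewer cells and less RNA per cell cannot be told apart.

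**Figure D1:**
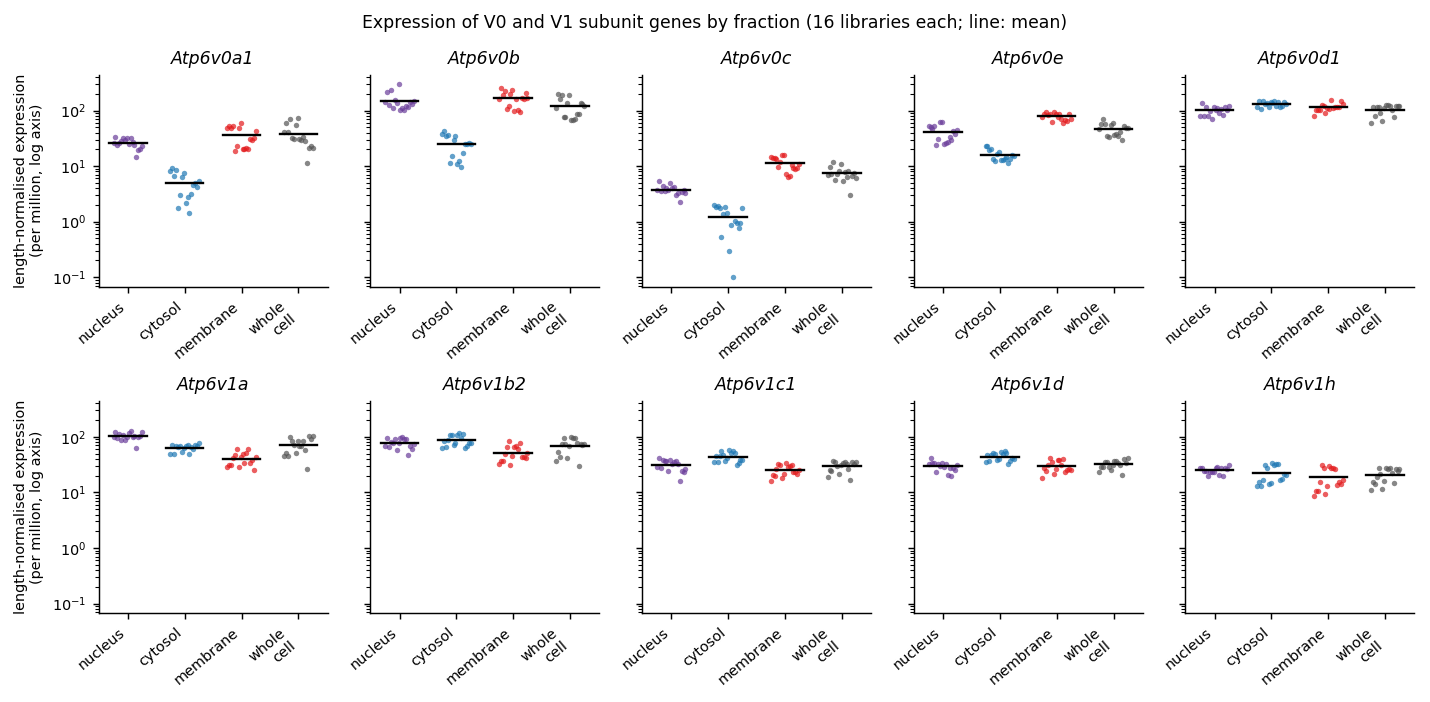
Length-normalized expression (log axis) of the 10 genes in the nucleus, cytosol, membrane fraction and whole cells, each point 1 of 16 libraries and each line the mean. For Atp6v0a1, Atp6v0b, Atp6v0c and Atp6v0e the cytosolic points lie below all membrane points, while for Atp6v0d1 and the V1 genes the 2 sets overlap.

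Replicate pairs differed in level. Atp6v0a1 averaged 52.1 at the membrane in replicates 1 and 2, 20.6 in 3 and 4, and 33.5 in 5 and 6, and its cytosolic means of 7.78, 2.39 and 4.81 moved in the same order. Atp6v1h moved otherwise, with membrane means of 11.3, 28.4 and 15.0 and cytosolic means of 14.6 and 31.6 in the first 2 of these pairs. Ratios within a culture are therefore shown beside the levels.

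The ratio of the mean membrane to the mean cytosolic level was 9.21 for Atp6v0c, 7.11 for Atp6v0a1, 6.73 for Atp6v0b and 4.93 for Atp6v0e. Within the 16 cultures Atp6v0a1 ranged from 5.75 to 14.7 (median 7.31), Atp6v0b from 4.14 to 13.1 (median 6.81) and Atp6v0e from 3.38 to 6.73 (median 4.99). Atp6v0c ranged from 6.17 to 66.1 (median 9.18), the highest value resting on 3 cytosolic reads. With the reads of Atp6v0c-ps2 added, the ratio of mean CPM was 13.6, where CPM are reads scaled to a common library total, against 9.94 for Atp6v0c alone on that scale. These 4 genes lay at the 90.3 to 96.0 percentile of the 14717 expressed genes with a ratio, whose median was 0.663. A ratio of at least 3, taken as membrane localization, was met by 4 of 10 members and by 13.8% of expressed genes.

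The other 6 genes lay below 1. Atp6v0d1 had a ratio of 0.874 (0.689 to 1.06 within cultures), Atp6v1h 0.845 (0.646 to 0.999) and Atp6v1d 0.670 (0.518 to 0.783). Lowest were Atp6v1a at 0.633 (0.379 to 1.06), Atp6v1b2 at 0.599 (0.431 to 0.777) and Atp6v1c1 at 0.577 (0.460 to 0.761). All 6 were at or below 1.5, the limit for the cytosolic class, as were 80.9% of expressed genes. In 16 of 16 cultures the lowest of the 4 membrane-rich genes stood above the highest of the other 6, and the smallest such gap was 4.396-fold. The 4 genes are named by this same ratio, so their separation is a description and not a test. It is also not a split by sector, since Atp6v0d1 of V0 lay with the V1 genes. Neighbors in the order often traded places: Atp6v0a1 was above Atp6v0b in 11 of 16 cultures, Atp6v0d1 above Atp6v1h in 10, Atp6v1d above Atp6v1a in 11 and Atp6v1b2 above Atp6v1c1 in 9. Atp6v0b was above Atp6v0e, and Atp6v1h above Atp6v1d, in all 16.

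**Figure D2:**
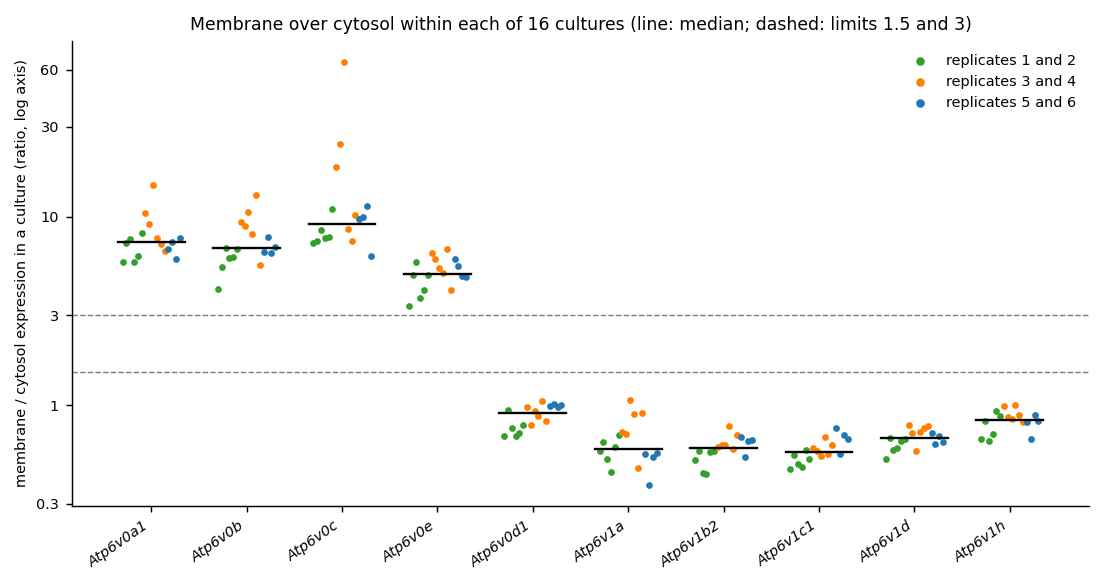
Membrane over cytosol ratio of length-normalized expression (log axis) in each of 16 cultures for the 10 genes, with the median as a line and the limits 1.5 and 3 dashed. The points of Atp6v0a1, Atp6v0b, Atp6v0c and Atp6v0e all lie at or above 3.38 and those of the other 6 genes at or below 1.06.

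In edgeR's quasi-likelihood test of membrane against cytosol, a gene was called at a Benjamini-Hochberg adjusted p below 0.05 and a log2 fold change beyond 0.5. Of the 10 members, 4 were called higher at the membrane and 0 lower, beside 24.1% and 12.9% of the 16093 genes tested (36.9% in either direction). The median log2 fold change was 3.23 over the V0 genes, −0.27 over the V1 genes and −0.16 over all genes tested. Atp6v0c rose by 3.69 ± 0.20 (SE, edgeR adjusted p = 3.60e-26), Atp6v0a1 by 3.33 ± 0.23 (6.07e-21), Atp6v0b by 3.23 ± 0.22 (2.36e-21) and Atp6v0e by 2.77 ± 0.16 (2.67e-25). Within the 3 replicate pairs Atp6v0a1 gave 3.56, 3.39 and 3.00, and Atp6v0e 2.95, 2.74 and 2.60. Among the members not called, Atp6v1c1 had −0.39 ± 0.07, Atp6v1b2 −0.35 ± 0.09, Atp6v1a −0.27 ± 0.09, Atp6v1d −0.17 ± 0.08, Atp6v1h 0.12 ± 0.15 and Atp6v0d1 0.24 ± 0.09. Atp6v0d1 and Atp6v1h were above 0 on this scale, which is set by most genes, while their length-normalized ratios were below 1, so their direction depends on the scaling. For Atp6v1a the pairs gave 0.01, −0.11 and −0.78, of which the last, in replicates 5 and 6, was called. Atp6v1c1 was called lower without replicate 2 (−0.55), without replicate 5 (−0.55) and within replicates 3 and 4 (−0.52).

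Other subunits fell on the same sides. Of 6 further V0 genes 4 were tested and 4 were called higher at the membrane, with ratios from 3.62 for Tcirg1, which encodes another isoform of subunit a, to 7.35 for Atp6v0a4, a further isoform of it, which had only 0 to 18 cytosolic reads per library and ratios of 2.06 to 18.3 in the 14 cultures where it was detected there. Of 8 further V1 genes 5 were tested, 0 were called higher and 1, Atp6v1c2, lower, and the ratios ran from 0.532 for Atp6v1c2 to 0.812 for Atp6v1f. Atp6v1c2 was also low, at 4 to 23 membrane reads and 5 to 52 cytosolic reads per library. Assembly factors and accessory proteins were mixed, with 3 of 9 called higher and 4 lower. They spanned Atp6ap2, a protein with 1 membrane span, at 22.4 and Ccdc115 at 0.409. All 14 genes for P-type pumps, another class of membrane ATPases, were called higher, and the lowest ratio among them was 3.29 (Atp13a1). The mitochondrial ATP synthase is built in the same way from a soluble head and a membrane sector. Of its genes, 0 of 5 for the head F1 and 2 of 10 listed with the membrane part Fo were called higher, none lower. The Fo list was not split by whether a product crosses the membrane. The highest ratios of the ATP synthase were 0.844 (Atp5c1) in F1 and 1.23 (Atp5j2) in Fo. As references, 10 of 10 genes for proteins of the endoplasmic reticulum, lysosome and cell surface were called higher, from Tfrc (the transferrin receptor) at 5.79 to Hspa5 (a chaperone of the endoplasmic reticulum) at 27.1, and 0 of 10 genes for cytosolic proteins, of which 2 were called lower.

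The nucleus held more of the 4 membrane-rich mRNAs than the cytosol did. Atp6v0a1 had nuclear levels of 14.7 to 33.3 (median 26.0), Atp6v0b of 101 to 299 (median 135), Atp6v0e of 23.6 to 63.5 (median 39.6) and Atp6v0c of 2.24 to 5.34 (median 3.69), and all 4 were above the cytosol in 16 of 16 cultures. The ratio of the nuclear to the cytosolic mean was 6.09 for Atp6v0b, 5.19 for Atp6v0a1, 3.12 for Atp6v0c and 2.53 for Atp6v0e, against 1.42 for the median gene. In CPM, the ratio of Atp6v0c was 2.74 alone and 2.96 with the reads of Atp6v0c-ps2 added. Atp6v1a, at 62.6 to 130 (median 100) in the nucleus, had a ratio of 1.61 and Atp6v1h of 1.13. Below 1 were Atp6v1b2 (0.896), Atp6v0d1 (0.766), Atp6v1c1 (0.715) and Atp6v1d (0.671).

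Of the 10 members, 4 were called higher and 3 lower in the nucleus than in the cytosol by edgeR, beside 42.5% and 21.2% of genes tested (63.7% in either direction), and the median of all genes was 0.29. The log2 fold change was 2.42 ± 0.21 (SE, adjusted p = 3.22e-16) for Atp6v0b, 2.17 ± 0.22 (1.06e-13) for Atp6v0a1, 1.45 ± 0.19 (5.55e-10) for Atp6v0c and 1.19 ± 0.15 (1.28e-10) for Atp6v0e. Its size differed between replicate pairs, with 1.46, 3.18 and 1.84 for Atp6v0a1 and 0.82, 2.06 and 1.36 for Atp6v0c. Atp6v1d fell by 0.76 ± 0.08 (7.99e-13), Atp6v1c1 by 0.71 ± 0.07 (9.60e-15) and Atp6v0d1 by 0.56 ± 0.09 (2.62e-07). Atp6v0d1 was no longer called without replicate 3 (−0.48) or within replicates 5 and 6 (−0.44). Atp6v1a (0.48 ± 0.09), Atp6v1b2 (−0.37 ± 0.09) and Atp6v1h (0.01 ± 0.15) were not called, but Atp6v1a was without replicate 3 (0.53), as was Atp6v1b2 in 6 of 14 alternatives (−0.70 to −0.53). The sign of Atp6v1h differed in 10 of 14, and within replicates 3 and 4 it was called lower (−0.76). The membrane and nuclear comparisons share the cytosolic libraries. All 4 further V0 genes tested, 14 P-type pumps and 10 membrane reference genes were called higher in the nucleus too. Their median log2 fold changes were 1.91, 2.34 and 2.15. Of 5 further V1 genes tested 1 was called higher and 3 lower, and of 10 cytosolic reference genes 0 and 5. The paper names slight contamination between nuclear and membrane fractions as a hindrance to its estimates, and its part here was not tested.

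**Figure D3:**
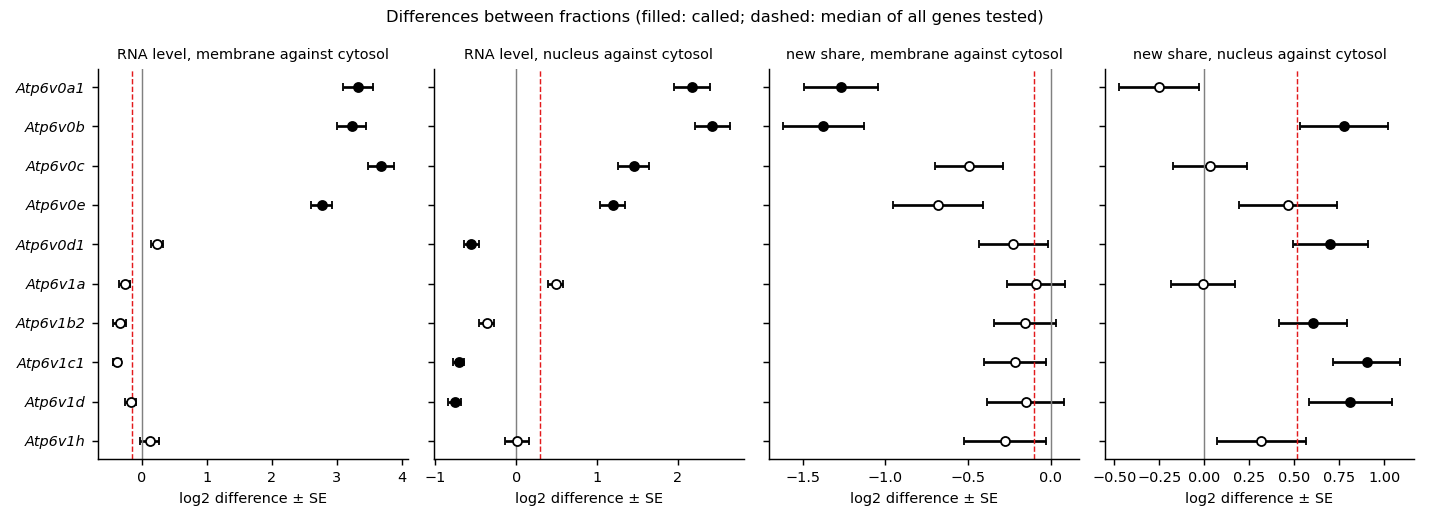
Log2 difference ± SE of the 10 genes between fractions, for read counts (edgeR) and for the share of new RNA at 60 and 120 min (limma), with called genes filled and the median of all genes tested dashed. The 4 V0 genes Atp6v0a1, Atp6v0b, Atp6v0c and Atp6v0e stand at 2.77 to 3.69 for membrane counts against cytosol, and the other members between −0.39 and 0.24.

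The share of new RNA is the fraction of T positions read as C in the exons of a gene, divided by the conversion rate of the library, and it can exceed 100% since that rate is an estimate. All 10 members had the minimum of 400 T positions in all 64 libraries. At 120 min (n = 2 libraries per fraction) the median gene had reached 42.9% in the nucleus, 37.0% in the cytosol and 30.2% at the membrane, and all 10 members were below these values in all 3 fractions. At the membrane the V0 genes had 12.0% (Atp6v0a1), 12.0% (Atp6v0d1), 12.5% (Atp6v0e), 13.0% (Atp6v0b) and 17.6% (Atp6v0c). The V1 genes had 16.5% (Atp6v1h), 17.3% (Atp6v1c1), 18.3% (Atp6v1d), 18.6% (Atp6v1a) and 23.6% (Atp6v1b2). The share of Atp6v0c rests on more than its unique reads and may include the copy. Its exons held 155193 T positions in the whole-cell library of replicate 5 at 60 min, where it had 97 unique reads. At coding base 111 a read of the copy has C in place of T, as a converted read would. The paper excluded T-to-C variants seen in unlabeled samples, and whether this base was among them is not given. Its effect on the shares of Atp6v0c was not tested.

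In 6 cultures labeled for 60 or 120 min the share of Atp6v0a1 was 3.10% to 14.1% (median 4.85%) at the membrane and 5.82% to 32.4% (median 17.6%) in the cytosol, lower at the membrane in 6 of 6. Atp6v0b had 1.67% to 13.5% (median 2.82%) at the membrane against 5.27% to 31.2% (median 11.4%) in the cytosol, again lower in 6 of 6. By limma on log2(share + 0.01), both were called lower at the membrane, Atp6v0b by −1.37 ± 0.24 (SE, adjusted p = 5.84e-04) and Atp6v0a1 by −1.27 ± 0.22 (5.75e-04). That made 2 of 10 members lower and 0 higher, beside 9.29% and 0.588% of the 12255 genes tested (9.87% in either direction). The call of Atp6v0a1 was lost without replicate 5 (−1.14, adjusted p = 0.0642) and without replicate 6 (−1.15, adjusted p = 0.0563), and over all times its difference was −0.31 (adjusted p = 0.435). Atp6v0e had medians of 7.81% and 16.4%, and −0.68 ± 0.27 (0.166). For Atp6v0c the medians were 8.67% and 16.5%, with −0.49 ± 0.21 (0.189). Both were called lower without replicate 3 (−0.70 for Atp6v0e and −0.62 for Atp6v0c) and over all times (−0.64 and −0.96). Atp6v0d1 (−0.22) and the V1 genes (−0.28 to −0.09) were not called.

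The cytosolic share of the membrane-rich genes rests on an RNA pool that also holds introns. Per 100 T positions in exons, the cytosolic libraries had 45.5 ± 13.4 (SD, n = 16) in introns of Atp6v0a1, 22.0 ± 12.9 in Atp6v0c, 16.3 ± 4.99 in Atp6v0b and 7.05 ± 4.09 in Atp6v0e, where the median gene had 8.36. In the V1 genes this ran from 2.54 in Atp6v1b2 to 14.9 in Atp6v1h. At the membrane Atp6v0c had 0.883, Atp6v0b 1.17, Atp6v0e 2.00 and Atp6v0a1 9.63. The part of such RNA in the cytosolic levels and shares was not tested. Among other lists, the share of new RNA was called lower at the membrane than in the cytosol for 11 of 14 P-type pumps, 10 of 10 membrane reference genes, 1 of 4 further V0 genes and 0 of 3 further V1 genes, beside 9.29% of genes tested. The log2 differences of the 4 further V0 genes had a median of −0.70 and were all at or below −0.30, and those of the 3 V1 genes had a median of −0.08.

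Nuclear shares were compared with cytosolic ones in the same fit. Of the 10 members, 5 were called higher in the nucleus, and 0 lower, beside 43.9% and 3.39% of genes tested (47.3% in either direction), and the median difference of all genes was 0.51. They were Atp6v1c1 (0.90 ± 0.19, SE, limma adjusted p = 0.00104), Atp6v1d (0.81 ± 0.23, 0.00826), Atp6v0b (0.78 ± 0.24, 0.0137), Atp6v0d1 (0.70 ± 0.21, 0.0108) and Atp6v1b2 (0.60 ± 0.19, 0.0134). Atp6v0a1 (−0.25), Atp6v1a (−0.01), Atp6v0c (0.03), Atp6v1h (0.32) and Atp6v0e (0.47) were not called. Over all labeling times Atp6v0a1 (0.57), Atp6v1a (0.50) and Atp6v0e (0.68) were called higher in the nucleus too. Leaving out 1 replicate ended the call of Atp6v1b2 (0.43 without replicate 3, 0.52 without 4), of Atp6v0d1 (0.48 without 3) and of Atp6v0b (0.86 without 5). Relative to the median gene of each library, 0 of these 5 calls held, with differences of 0.03 to 0.33, and Atp6v0a1 (−0.83), Atp6v1a (−0.58) and Atp6v0c (−0.54) were called lower in the nucleus. With that centering the calls over all genes split into 1698 higher and 2576 lower, in place of 5375 and 416.

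**Figure D4:**
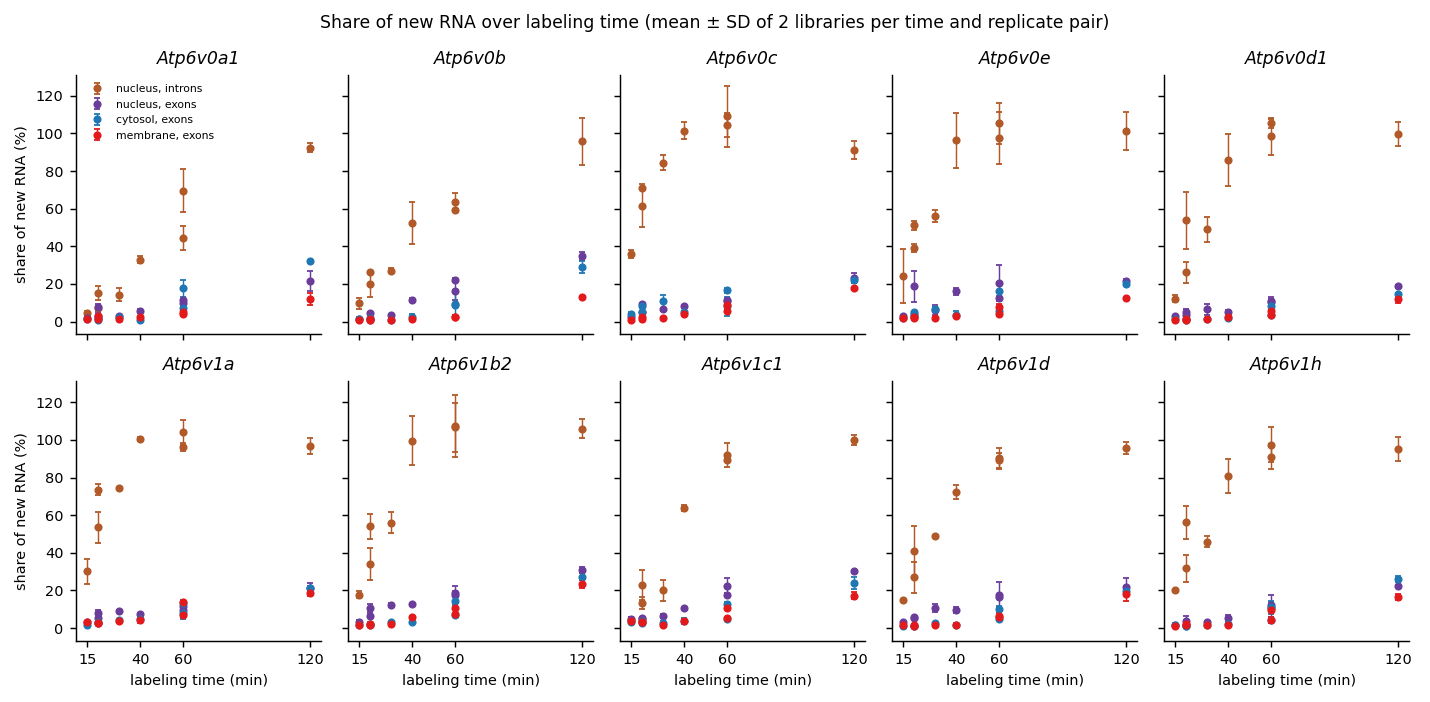
Share of new RNA (%) of the 10 genes against labeling time (min) for exons in the nucleus, cytosol and membrane fraction and for introns in the nucleus, as mean ± SD of 2 libraries per time and replicate pair. At 120 min nuclear introns lie between 91.3% and 106% and exons between 12.0% and 34.7% in all 3 fractions.

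Introns of the nucleus, which mark RNA not yet spliced, had higher shares than exons, in 16 of 16 cultures for 9 members and in 15 for Atp6v1c1. Members differed at short times. At 15 min the intron share was 36.0% for Atp6v0c, 30.2% for Atp6v1a and 24.1% for Atp6v0e, but 4.21% for Atp6v1c1, 4.67% for Atp6v0a1 and 9.64% for Atp6v0b, where the median gene had 13.4%. At 30 min Atp6v0c had reached 84.5%, Atp6v1a 74.5% and Atp6v0a1 14.2%, against 38.4% for the median gene. Atp6v0a1 (44.3%) and Atp6v0b (59.1%) were still below the median gene (82.7%) at 60 min in replicates 3 and 4, while Atp6v0d1, Atp6v1a, Atp6v1b2 and Atp6v0c were above 100%. At 120 min all 10 lay between 91.3% and 106%. The order did not follow the sectors, since both V0 and V1 genes stood at its upper and lower ends. Nuclear introns held 7.84 T positions per 100 in exons for Atp6v1a and 58.5 for Atp6v1h, with a median gene of 36.1.

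Exons near the 3′ end of a gene had higher shares of new RNA at short times than those near its start. In 10 nuclear libraries of 15 to 40 min, Atp6v1c1 had a share of 14.1% in the measured exon nearest the 3′ end and 0.926% in the farthest, 30.4 kb away. Atp6v1h, whose locus spans 92.5 kb, had 9.44% at 0.212 kb and 0.465% at 79.3 kb, and Atp6v1b2 12.1% and 1.16%. All 3 were higher at the near exon in 10 of 10 libraries, as was Atp6v0e (3.96% and 1.25%). Among shorter loci, Atp6v0b, of 3.01 kb, had 6.82% and 2.81% and was higher at the near exon in 8 of 10, and Atp6v0c 6.48% and 5.24%, also in 8. Atp6v0d1, whose farthest exon lies 41.4 kb from its 3′ end, had 6.59% and 5.24%. Single exons hold few T-to-C positions, and the farthest exon was at 0 in some libraries of each member at these times.

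**Figure D5:**
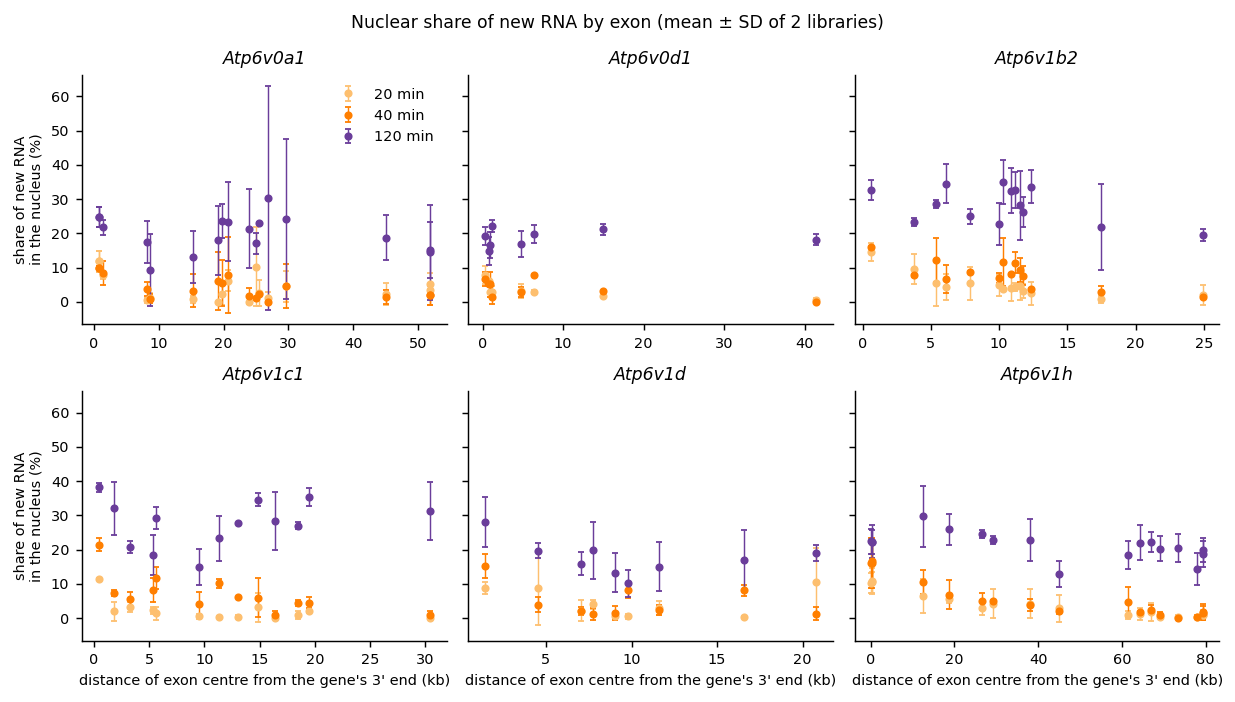
Nuclear share of new RNA (%) of each measured exon against the distance of its center from the 3′ end of the gene (kb), as mean ± SD of 2 libraries. Over the 10 nuclear libraries of 15 to 40 min, of which only a part is drawn, the mean shares of Atp6v1c1, Atp6v1b2 and Atp6v1h were 9.44% to 14.1% in the exon nearest the 3′ end. In the farthest exon they were 0.465% to 1.16%.

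Across the 64 libraries the genes whose log2 CPM were most like those of Atp6v0c were Atp6v0c-ps2 (Pearson's r = 0.983), Stt3a (0.983), a subunit of the oligosaccharyltransferase of the endoplasmic reticulum, and Pgrmc2 (0.981), a membrane protein. Among members Atp6v0e had 0.917, Atp6v0a1 0.905 and Atp6v0b 0.851 with Atp6v0c, while Atp6v0d1 had −0.09 and Atp6v1c1 −0.77. Most like Atp6v1a were Myof (0.918), Pop1 (0.918) and Txnip (0.910), and of the members Atp6v1b2 (0.499). Libraries of a fraction share their profile, so these values describe mostly the pattern over fractions.

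Whole-cell levels were compared between labeling times within a replicate pair. Atp6v0a1 ranged from 11.4 to 74.4 (median 31.9) and Atp6v0b from 67.4 to 198 (median 118) over the 16 libraries, mostly between pairs: Atp6v0b averaged 165, 73.9 and 119 in the 3 pairs and Atp6v1b2 52.7, 90.2 and 62.2. Within pairs, edgeR called 0 of 16858 genes (0.0%), members included, for 60 against 20 min, 30 against 15 min and 120 against 60 min, and DESeq2 0 as well. Without replicate 6, which leaves 1 library per time in its pair and takes the spread from the other groups, 120 against 60 min also gave 0. At an unadjusted p under 0.05 there were 747, 251 and 123 genes, of which 0 were members, and the largest log2 fold change of a member was 0.29, 0.22 and 0.34. Each time within a pair had 2 libraries and the spread could be wide, as in 64.1 ± 53.3 (SD) for Atp6v1a at 60 min in replicates 5 and 6. The lack of calls therefore does not show that levels were unchanged. In whole cells of replicate 5 the share of new Atp6v0b RNA was 7.72% at 60 min and 17.9% at 120 min, and that of Atp6v1a 14.0% and 22.0%. The replicate 6 libraries labeled 60 and 120 min gave 21.4% and 5.10% for Atp6v0b and 20.3% and 11.3% for Atp6v1a, in the reverse order, and for all 10 members the library labeled 120 min was the lower.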

How the data were processed

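Polyadenylated RNA from nucleus, cytosol, membrane fraction and whole cells was sequenced after a stranded preparation; cycloheximide was present during fractionation. The authors aligned reads with STAR 2.7.6 to GRCm38 and deposited read counts per gene made with HTSeq 0.11.1 from unique alignments (the strand setting is not given in the sources used here; rows naming no gene held 30.4% to 48.8% of records and were left out). They also deposited counts of T and of T-to-C positions per gene, intron and exon, the conversion rate of each library as a fraction from a binomial mixture model, and the ratio of new to total RNA, equal to T-to-C over T over conversion rate. Here, exon lengths, coordinates and coding sequences came from GENCODE M21 (GRCm38), which matched 51633 of 51826 genes. RefSeq proteins were not used here.

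Level differences between fractions were tested with edgeR 4.0.16 (quasi-likelihood, TMM, fraction as the only term, all 64 libraries). Whole-cell levels were tested by edgeR over all 18 whole-cell libraries, grouped by labeling time and replicate pair. These include 120 min of replicates 3 and 4. Shares were tested with limma 3.58.1 on log2(share + 0.01), over 18 libraries of 60 and 120 min with labeling condition as a term. Genes needed at least 400 T positions in each. Benjamini-Hochberg adjustment was over all genes tested. Alternatives used DESeq2 1.42.0, other filters, scalings, times and samples. Python 3.11.15 and R 4.3.3 were used, and the fits were tested on simulated data. Fractions with the same number and time came from 1 culture per the labels. Their deviations from the group means correlated at 0.173 to 0.540 between membrane and cytosol and at −0.0939 to 0.432 between nucleus and cytosol. Both cultures of a replicate pair at a time give the same value, since their deviations from a shared mean mirror each other. The values over 0.1, in 16 of 16 and 12 of 16 cultures, are therefore each counted in duplicate. The 10 members, other subunits, assembly factors, pumps and reference genes were all described by list, with genes at the highest and lowest ratio of a list named as examples; 1 of these is not reported here. Members and lists were chosen with earlier results of these data known. The coding features, the copy of Atp6v0c and the results without whole-cell replicate 6 were added after seeing the data.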

Additional observations from a re-analysis of the deposited data

Results flagged for a closer look

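Of 200 groups of 4 libraries examined, 12 held a library far from the other 3 by Dixon's ratio, and chance alone flags about 1 group in 20.

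Both membrane-rich genes with a ratio set apart had it in replicate 3. The membrane over cytosol ratio of Atp6v0c at 60 min was 66.1 in that replicate against 9.74 to 11.4 in the others, and at 20 min 18.2 against 7.41 to 8.61. For Atp6v0a1 the ratio at 60 min was 14.7 in replicate 3 and 5.96 to 6.77 in the others. The cytosolic share of new Atp6v0c RNA at 20 min was 2.47% in replicate 3 and 7.81% to 8.16% elsewhere.

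Among levels, Atp6v1a had 62.6 (length-normalized expression) in the nucleus of replicate 5 at 60 min against 98.1 to 102 in the others, and 48.8 in the cytosol of replicate 1 at 20 min against 66.6 to 68.2. Atp6v1h had 19.6 in the nucleus of replicate 3 at 20 min, where the others had 23.7 to 24.5.

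Among shares of new RNA, Atp6v0b had 21.4% in the whole-cell library labeled 60 min of replicate 6 and 6.28% to 7.72% in the others, and this is 1 of the libraries that ran against their labels. Atp6v0a1 had 3.10% at the membrane in replicate 4 at 60 min (others 4.73% to 4.87%), and Atp6v0e 27.3% in the nucleus of replicate 3 at 60 min (others 12.1% to 13.8%). Atp6v1d had 4.73% in the nucleus of replicate 2 at 20 min (others 5.78% to 5.94%), and the nuclear introns of Atp6v0c 53.5% in replicate 1 at 20 min (others 69.8% to 71.3%).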

How the results depend on the processing

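The membrane over cytosol counts of Atp6v0a1, Atp6v0b, Atp6v0c and Atp6v0e kept their direction and their call under every alternative that was run, and 4 members had a ratio of at least 3 under each. Fits with the culture as a replicate block changed no call of a member, and called 6190 genes in place of 5942 (membrane counts), 10393 in place of 10252 (nuclear counts), 1130 in place of 1210 and 5689 in place of 5791 (shares). Where a value turned or a call was lost, the cause was not tested.

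For membrane counts against cytosol, values near 0 turned: within replicates 1 and 2 Atp6v1a had 0.01 (0.00804) and Atp6v1d 0.10, Atp6v1h had −0.13 within replicates 5 and 6, and leaving out 1 replicate at a time gave Atp6v1h −0.063 to 0.15. In nuclear counts against cytosol Atp6v1h had −0.12 with DESeq2 size factors, −0.12 with DESeq2, −0.15 with no filter on low counts, −0.38 over all 72 libraries, −0.76 within replicates 3 and 4, and −0.27 to 0.28 with 1 replicate left out. The length-normalized membrane over cytosol ratio of the nuclear RNA Neat1 was 1.69 within replicates 3 and 4, against 0.487 in the main setting.

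Shares of new RNA depended more on the setting. With libraries centered on their median, membrane against cytosol gave 0.12 for Atp6v1a, 0.058 for Atp6v1b2 and 0.060 for Atp6v1d, with 618 genes higher and 1008 lower in place of 72 and 1138, and nucleus against cytosol gave −0.54 for Atp6v0c, −0.11 for Atp6v0e and −0.26 for Atp6v1h, with 3 members called. Over all labeling times the nuclear comparison called 8951 genes and 8 members, with 0.57 for Atp6v0a1 and 0.50 for Atp6v1a. With 1 replicate left out, the membrane comparison called 576 (without replicate 6) to 1516 genes (without replicate 3) and 1 to 4 members, and the nuclear one 3 to 5 members, with −0.47 to 0.01 (0.00619) for Atp6v0a1, −0.21 to 0.20 for Atp6v0c and −0.070 to 0.10 for Atp6v1a.

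With no filter on low counts the whole-cell comparisons called 42 (60 against 20 min), 6 (30 against 15 min) and 49 genes (120 against 60 min). Low cytosolic counts limit Atp6v0c, and the few converted positions limit shares of single exons and of short labeling times.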
